A study of Mus musculus with 6 samples.

Results

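Ephrins and their Eph receptors were described across mouse endothelial cells with and without added RBPMS. The set was 10 genes chosen by symbol, of 54532 genes in the deposited count table: the receptors Ephb1, Ephb2, Ephb3, Ephb4, Epha2 and Epha4, and the ligands Efnb1, Efnb2, Efna1 and Efna5. The cells were cultured endothelial cells in a complete medium with serum, exposed for 72 h to lentivirus that overexpressed RBPMS (n = 3) or carried an empty vector (control, n = 3). Both groups thus received virus, and neither the vascular bed, the age, the sex or strain of the source animals nor the promoter of the vector is given in the sources used here. RBPMS is an RNA-binding protein that recognises CAC-containing sequences in RNA and takes part in splicing. Whether the replicates are separate cultures is not in the labels, so each p-value rests on a spread between libraries that may be technical.

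Eph receptors are receptor tyrosine kinases that meet their ephrin ligands on neighbouring cells. Receptor and ligand both signal into their own cell, so the exchange runs in both directions and often drives cells apart or sorts them. A-type ephrins are held in the membrane by a lipid anchor and bind mainly EphA receptors, while B-type ephrins span the membrane and bind mainly EphB receptors. In developing vessels ephrin-B2 marks arteries and EphB4 marks veins, and the pair keeps the vessel types apart.

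Total counts ran from 18199702 to 21492957 in the RBPMS libraries and from 15779567 to 23076124 in the control libraries. Rbpms itself had 131, 147 and 133 CPM (read counts relative to library size, scaled by the trimmed mean of M-values, TMM) in RBPMS replicates 1 to 3, against 57.0, 56.8 and 55.1 CPM in control replicates 1 to 3, so the targeted transcript was higher in every RBPMS library. Control replicate 3 stood apart: across genes, which are not independent replicates, its log2 CPM had correlations of 0.954 to 0.960 with the rest, which among themselves had 0.991 to 0.995. All 10 endothelial markers had counts, and their summed level (CPM of the library total here and for the next lists) was 12503 to 12835 with RBPMS and 12291 to 13066 in controls. Among markers of other cells, Epcam, Cdh1, Krt18, Adgre1, Cd3e and Rgs5 had 0 counts. The 12 mural and fibroblast markers summed to 6.65 to 7.58 CPM with RBPMS and 5.94 to 9.44 CPM in controls. The 8 leukocyte markers, of which 6 had counts, summed to 54.9 to 60.1 CPM with RBPMS and 42.9 to 47.1 CPM in controls, nearly all of it Cd68. The 8 epithelial and mesothelial markers, of which 5 had counts, summed to 17.1 to 21.2 CPM with RBPMS and 21.4 to 26.3 CPM in controls, mostly Msln. The 5 lymphatic markers, mostly Lyve1, with Pdpn and Ccl21a at 0 counts, summed to 364 to 393 CPM with RBPMS and 354 to 483 CPM in controls. The leukocyte and the epithelial and mesothelial sums separated the groups. Without control replicate 3, which lay at 354 CPM for the lymphatic and 5.94 CPM for the mural list, the lymphatic sum (433 to 483 CPM in controls) and the mural sum (7.95 to 9.44 CPM in controls) were lower with RBPMS in every library as well. The part of these markers in the results was not tested.

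Ephb1 and Efnb2 passed the test for a difference between groups without control replicate 3, though not with all 6 libraries in edgeR, and Ephb4 was by far the most abundant of the 10. Their sequences are shown for that reason. The first are the 250 bases upstream of the annotated start (RefSeq, GRCm38.p6), on the strand of the gene, 5′ to 3′. They lie at chr9:102354694-102354943 (minus strand) for Ephb1, chr8:8661243-8661492 (minus strand) for Efnb2 and chr5:137349859-137350108 (plus strand) for Ephb4. Capitals mark GC boxes (GGGCGG, or CCGCCC on the other strand) and TATA boxes (TATAAA, or TTTATA on the other strand), which do not overlap in these windows.
Ephb1: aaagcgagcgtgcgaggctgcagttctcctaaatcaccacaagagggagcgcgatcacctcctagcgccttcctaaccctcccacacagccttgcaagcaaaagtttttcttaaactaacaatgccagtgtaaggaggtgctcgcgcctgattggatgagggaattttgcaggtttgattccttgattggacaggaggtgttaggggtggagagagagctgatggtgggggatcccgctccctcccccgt
Efnb2: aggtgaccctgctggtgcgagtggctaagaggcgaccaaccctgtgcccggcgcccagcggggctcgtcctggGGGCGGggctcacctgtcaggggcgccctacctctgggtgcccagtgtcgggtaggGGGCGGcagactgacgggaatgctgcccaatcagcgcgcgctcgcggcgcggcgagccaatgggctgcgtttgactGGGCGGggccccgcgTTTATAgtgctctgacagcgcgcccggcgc
Ephb4: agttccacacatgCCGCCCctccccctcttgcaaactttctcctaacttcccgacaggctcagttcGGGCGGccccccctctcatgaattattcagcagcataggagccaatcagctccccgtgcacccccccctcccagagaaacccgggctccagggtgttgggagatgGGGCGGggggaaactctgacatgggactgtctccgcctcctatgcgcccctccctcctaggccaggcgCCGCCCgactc

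The window of Ephb1 held none of these motifs and had 54.0% G and C bases and 10 CpG dinucleotides, the lowest G and C share of the 11 windows that RefSeq gives for the 10 genes. That of Efnb2 had 72.0% and 27 CpG, with 3 GC boxes and 1 TATA box, and that of Ephb4 had 64.0% and 12 CpG, with 4 GC boxes. The median window of all 27025 genes had 52.0% and 5 CpG. A GC box was in 32.7% of all windows and in those of 7 of the 10 genes, a TATA box in 12.9% of all and in Efnb2 alone among the 10, and the ETS core CCGGAA or TTCCGG in 12.3% of all and in Ephb2 alone among the 10. A match, or its absence, only describes the letters of these windows.

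Since RBPMS recognises paired CAC triplets, the longest coding transcript of each gene in GENCODE M21 was searched on its own strand for CAC, 1 to 12 bases of any kind, and CAC, counting each start once. The search was chosen after the expression values were seen. One coding stretch of 30 bases is shown for the same 3 genes, the first match that lies within a single coding exon, with every CAC triplet in capitals. The stretches lie at chr9:102223417-102223446 (minus strand) for Ephb1, chr8:8620804-8620833 (minus strand) for Efnb2 and chr5:137354305-137354334 (plus strand) for Ephb4 in GRCm38.
Ephb1: tgatggaCACaaggacagcCACtgcagagt
Efnb2: cgcaggagaCACcgcaaaCACtctcCACag
Ephb4: aggaacagCACagcgtccgCACctatgagg

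Ephb1 had 38 such starts in 4667 bases, or 8.14 per kilobase, more than 96.9% of the 11836 transcripts of tested genes. Efnb2 had 5.84 and Efnb1 5.83 per kilobase, above 89.4% of transcripts each, and Ephb2 had 6.04. Ephb4 had 3.03 per kilobase, close to the median of 2.94. The other 5 genes had 2.23 (Efna5) to 4.11 (Epha4) per kilobase. At least 1 start was in 97.0% of all these transcripts, so its presence sets no gene apart. Binding of RBPMS to these transcripts was not measured here.

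Per kilobase of annotated gene length, the genes of the set with counts spanned more than 3 orders of magnitude. Ephb4 had the highest transcript level. Ephb4 (ENSMUSG00000029710, chromosome 5, 137350109 to 137378669, plus strand, GRCm38) averaged 270.2 CPM per kilobase of annotated length with RBPMS and 259.5 in controls. It made up 73.4% to 74.5% of the summed CPM per kilobase of the 10 genes in the RBPMS libraries, against 71.6% to 75.2% in the controls. The ligands followed, with Efnb1 at 32.0 CPM per kilobase with RBPMS and 26.6 in controls, Efna1 at 25.8 with RBPMS and 31.5 in controls, and Efnb2 at 23.0 with RBPMS and 18.7 in controls. Epha2 came next (12.5 CPM per kilobase with RBPMS and 11.8 in controls), then Epha4 (1.41 with RBPMS and 1.21 in controls) and Efna5 (0.665 with RBPMS and 0.795 in controls). The cells thus held more transcript of each of 3 ligands than of any receptor other than Ephb4. The order among these 3 ligands rests on the length used. Their longest coding transcripts had 3258 (Efnb1), 1480 (Efna1) and 4793 bases (Efnb2), against annotated lengths of 3452, 1830 and 6855 bases.

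At the low end the order of the EphB receptors by group mean differed between the groups, though control replicate 2 had the order of the RBPMS libraries. Ephb1 had 0.335 and Ephb3 0.0739 CPM per kilobase with RBPMS, and their ranges over the 3 libraries did not overlap. In controls Ephb1 had 0.104 and Ephb3 0.179 CPM per kilobase, with ranges that overlapped. All other neighbours in the order by annotated length were separate in the RBPMS group, which may differ with another length, as may the overlaps that follow. In the 3 controls Efna1 and Efnb1, Efnb1 and Efnb2, and Efna5 and Epha4 also had overlapping ranges, and in control replicates 1 and 2 alone these pairs were separate. Ephb2 had 0 counts in all 6 libraries, which allows a level of up to 0.140 to 0.165 CPM in an RBPMS library and 0.130 to 0.190 CPM in a control library (3 counts of the library total, covering counting error only). That limit holds only if the authors' counting could assign reads to Ephb2, which the table does not show.

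**Figure D1:**
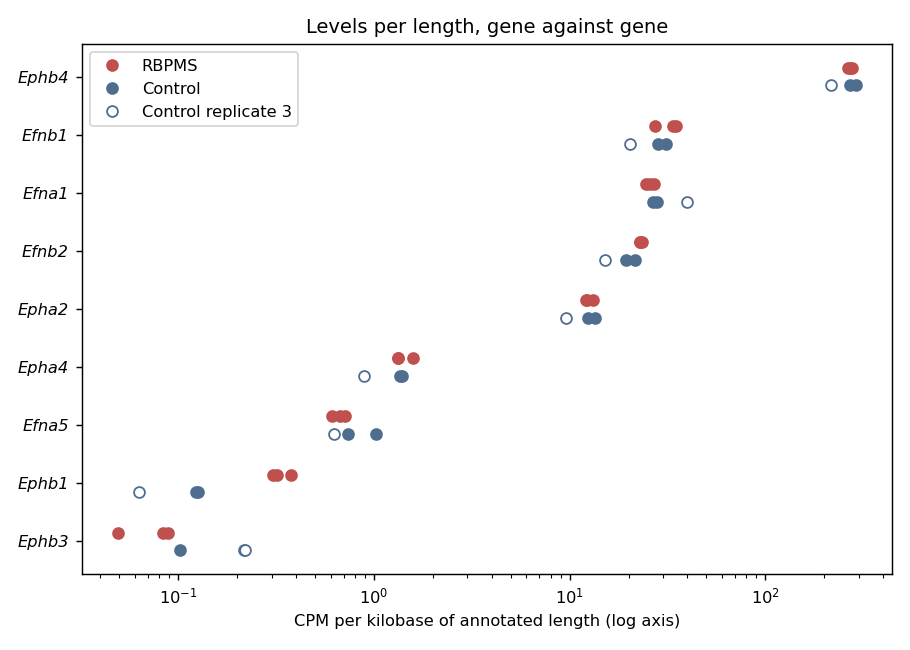
CPM per kilobase of annotated length (log axis) of the 9 expressed genes, 1 point per library, RBPMS in red above control in blue, with control replicate 3 as an open circle. Ephb4 lies near 270.2 CPM per kilobase with RBPMS and 259.5 in controls, well above Efnb1, Efna1 and Efnb2. At the bottom Ephb1 lies above Ephb3 with RBPMS, while their ranges overlap in controls.

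Ephb1 had the largest fold of the 9 tested genes. EphB1 is a receptor for B-type ephrins, best known from axon guidance and also studied in endothelial cells for attachment and capillary assembly. Ephb1 (ENSMUSG00000032537, chromosome 9, 101922128 to 102354693, minus strand) had 46, 57 and 39 counts in RBPMS replicates 1 to 3, against 14, 14 and 10 counts in control replicates 1 to 3. In CPM this was 2.25, 2.65 and 2.14 with RBPMS, against 0.879, 0.863 and 0.440 in controls. Every RBPMS library lay above every control. Ephb1 rose by a log2 fold change of 1.43 ± 0.31 (SE; 2.69-fold) (adjusted p = 0.0063) in edgeR's quasi-likelihood test of the 5 libraries other than control replicate 3. With all 6 libraries the log2 fold change was 1.71 ± 0.32 (3.28-fold) with an edgeR adjusted p of 0.480, and DESeq2 called it there (log2 fold change 1.73 ± 0.40, adjusted p = 0.0067). The exact two-sided permutation test of log2 CPM gave p = 0.1, the smallest that 3 against 3 allows.

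These are low counts. The exact Poisson 95% intervals of the raw counts were 33.7 to 61.4, 43.2 to 73.9 and 27.7 to 53.3 with RBPMS. In controls they were 7.65 to 23.5, 7.65 to 23.5 and 4.80 to 18.4, without overlap with the RBPMS ones. They are not scaled to library size, and cover counting error only, since reads are not independent molecules. Control replicates 1 and 2 had the smallest library totals, so the gap to them is narrower in CPM. Without control replicate 3, the call was lost when control replicate 1 (1.44, adjusted p = 0.074) or control replicate 2 (1.41, adjusted p = 0.062) was left out as well, which leaves a single control library. The genes that overlap the Ephb1 locus, on either strand, had at most 4 counts over the 6 libraries. The 6 markers of neurons, which also express Ephb1, summed to 0.538 to 0.651 CPM with RBPMS, against 0.123 to 0.253 CPM in control replicates 1 and 2 and 0.650 CPM in control replicate 3, with Snap25, Syt1 and Map2 at 0 counts. Without control replicate 3 this sum was higher with RBPMS in every library, like Ephb1, and its part in the result was not tested. These sums rest on few reads: 3 counts are 0.190 CPM in control replicate 1 and 0.185 CPM in control replicate 2. In bulk RNA a change in the number of cells that express a gene and a change in RNA per cell cannot be told apart.

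Ephb3, a receptor for the same ligands, lay the other way. Ephb3 (ENSMUSG00000005958, chromosome 16, 21204755 to 21223305, plus strand) had 12, 12 and 6 counts in RBPMS replicates 1 to 3, against 23, 11 and 33 counts in control replicates 1 to 3. In CPM this was 0.586, 0.557 and 0.328 with RBPMS, against 1.44, 0.678 and 1.45 in controls. The groups did not overlap in CPM, with control replicate 2 close to the RBPMS libraries. The log2 fold change was -1.08 ± 0.45 without control replicate 3 (edgeR adjusted p = 0.161) and -1.27 ± 0.41 with all 6 libraries (adjusted p = 0.587), so it did not pass in either fit. Within a library, where scaling cancels, there were 3.83, 4.75 and 6.50 counts of Ephb1 per count of Ephb3 with RBPMS, against 0.609, 1.27 and 0.303 in controls. That ratio is a description of genes chosen with their values known.

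Ephb4, by contrast, was nearly level. It had 1283, 1254 and 1224 CPM in RBPMS replicates 1 to 3, against 1260.1, 1342 and 1011 CPM in control replicates 1 to 3. The groups overlapped, and control replicate 3 was the lowest of the 6. The log2 fold change was -0.052 ± 0.047 without control replicate 3 (edgeR adjusted p = 0.597) and 0.058 ± 0.15 with all 6 libraries (adjusted p = 0.846), so its sign turned with that library. The coefficient of variation over the 3 RBPMS libraries was 2.33%. Zan, which overlaps Ephb4 on the opposite strand, had 135 counts over the 6 libraries, against 20070 to 26997 counts of Ephb4 in each.

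**Figure D2:**
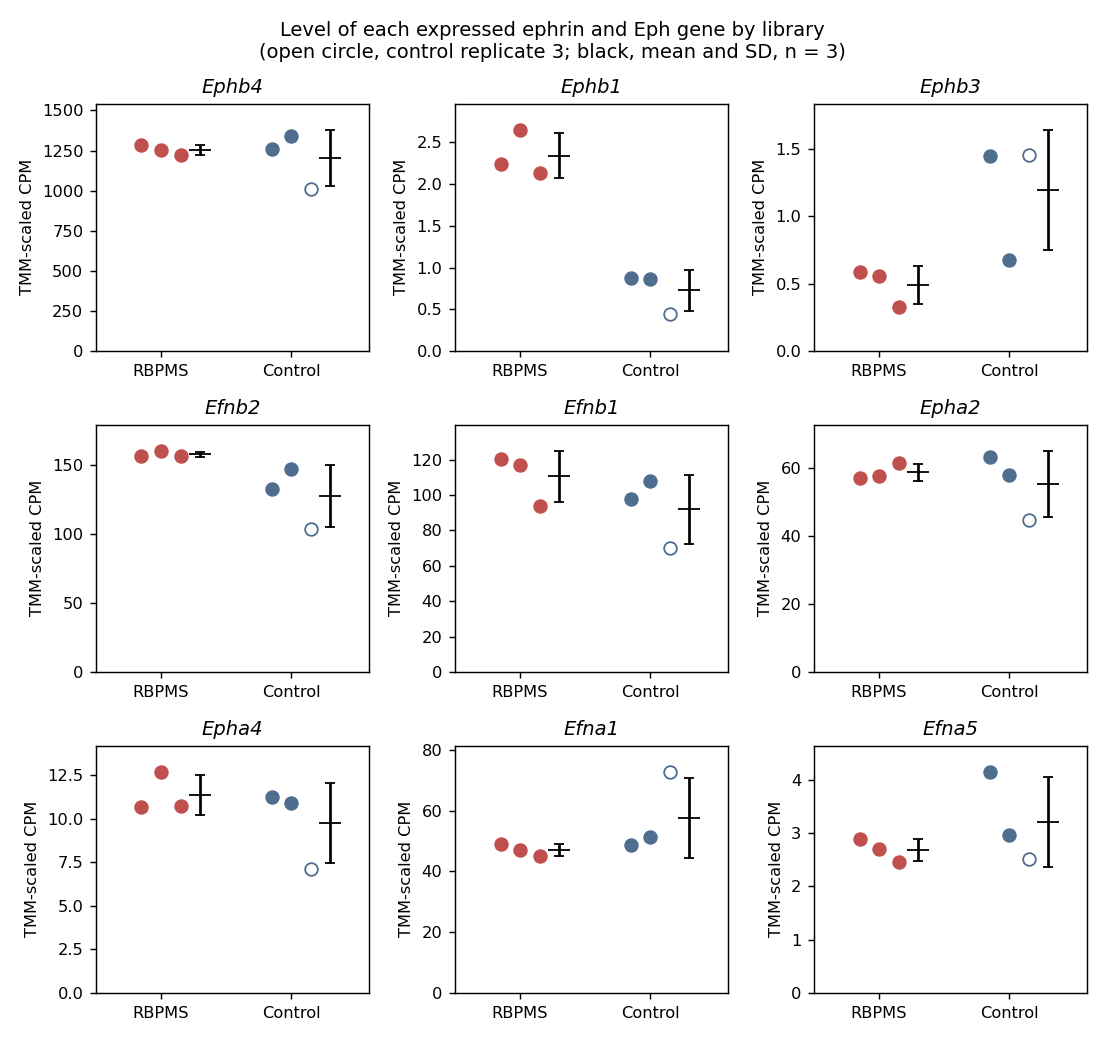
TMM-scaled CPM of each expressed gene by library (axes from 0), with RBPMS left of control, control replicate 3 as an open circle, and the mean and SD of 3 libraries in black. The RBPMS and control points do not overlap for Ephb1 (2.14 to 2.65 against 0.440 to 0.879 CPM), Ephb3 and Efnb2, and overlap for the other 6.

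Among the B-type ligands, Efnb2 was slightly higher. Ephrin-B2 is the arterial partner of EphB4, and within endothelial cells it also takes part in the uptake of growth factor receptors during sprouting. Efnb2 (ENSMUSG00000001300, chromosome 8, 8617434 to 8661242, minus strand) had 157, 160.3 and 156 CPM in RBPMS replicates 1 to 3, against 133, 148 and 103 CPM in control replicates 1 to 3. All RBPMS libraries lay within a few CPM of each other and above all controls. Efnb2 rose by a log2 fold change of 0.17 ± 0.051 (1.13-fold) (edgeR adjusted p = 0.043) in the fit without control replicate 3. Over all 6 libraries it was 0.30 ± 0.15 (adjusted p = 0.587).

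The call for Efnb2 was close to the threshold. In the 5-library fit it was lost in DESeq2 (0.17, adjusted p = 0.0599) and when 1 more library was left out: control replicate 1 (0.096, adjusted p = 0.471), RBPMS replicate 1 (0.18, adjusted p = 0.107) or RBPMS replicate 2 (0.16, adjusted p = 0.106). The number of Efnb2 counts per Ephb4 count was 0.122, 0.128 and 0.128 with RBPMS, against 0.105, 0.110 and 0.102 in controls, so the groups were separate in this ratio with control replicate 3 included. The ratio was chosen with the values known and has no test. For Efnb1 the matching ratio to Ephb4 overlapped, at 0.0768 to 0.0940 with RBPMS and 0.0693 to 0.0802 in controls. E230020D15Rik, a locus of unknown coding status that overlaps Efnb2 on the same strand, had 159 counts over the 6 libraries, against 9519 of Efnb2 with RBPMS and 6858 in controls.

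Efnb1, the other B-type ligand here, did not pass. Efnb1 (ENSMUSG00000031217, chromosome X, 99136130 to 99148991, plus strand) had 121, 117 and 94.0 CPM in RBPMS replicates 1 to 3, against 97.7, 108 and 70.0 CPM in control replicates 1 to 3. RBPMS replicate 3 fell among the controls, and the other RBPMS libraries lay above them. The log2 fold change was 0.11 ± 0.076 without control replicate 3 (edgeR adjusted p = 0.466) and 0.27 ± 0.19 with all 6 libraries (adjusted p = 0.591). In the 5-library fit it passed when RBPMS replicate 3 was left out as well (0.21 ± 0.054, adjusted p = 0.022).

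The A-type system did not pass in either fit. Epha2 encodes the EphA receptor that is most studied in adult vessel growth. Epha2 (ENSMUSG00000006445, chromosome 4, 141301240 to 141329384, plus strand) had 56.8, 57.5 and 61.4 CPM in RBPMS replicates 1 to 3, against 63.2, 57.9 and 44.5 CPM in control replicates 1 to 3. The groups overlapped, with log2 fold changes of -0.047 ± 0.065 without control replicate 3 (edgeR adjusted p = 0.754) and 0.086 ± 0.15 with all 6 libraries (adjusted p = 0.776). Epha4, a receptor that binds ligands of both types (ENSMUSG00000026235, chromosome 1, 77367185 to 77515088, minus strand), had 10.6, 12.7 and 10.7 CPM in RBPMS replicates 1 to 3, against 11.2, 10.9 and 7.13 CPM in control replicates 1 to 3. Its groups overlapped too, with log2 fold changes of 0.040 ± 0.12 without control replicate 3 (edgeR adjusted p = 0.899) and 0.22 ± 0.20 with all 6 libraries (adjusted p = 0.626).

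Efna1 encodes ephrin-A1, a ligand of EphA2 that was first found as a product of cytokine-stimulated endothelial cells. Efna1 (ENSMUSG00000027954, chromosome 3, 89271733 to 89281142, minus strand) had 49.1, 47.1 and 45.2 CPM in RBPMS replicates 1 to 3, against 48.8, 51.4 and 72.7 CPM in control replicates 1 to 3. Only control replicate 3 stood clearly above the rest. Its log2 fold change was -0.086 ± 0.069 without that library (edgeR adjusted p = 0.532) and -0.29 ± 0.17 with it (adjusted p = 0.587), so that 1 library set most of the difference.

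Efna5 encodes ephrin-A5, known from axon repulsion. Efna5 (ENSMUSG00000048915, chromosome 17, 62604184 to 62881317, minus strand) had 59, 58 and 45 counts in RBPMS replicates 1 to 3, against 66, 48 and 57 counts in control replicates 1 to 3. In CPM this was 2.88, 2.69 and 2.46 with RBPMS, against 4.14, 2.96 and 2.51 in controls. The RBPMS libraries lay below control replicates 1 and 2, and control replicate 3 lay among them. The log2 fold change was -0.40 ± 0.22 without control replicate 3 (edgeR adjusted p = 0.332) and -0.25 ± 0.24 with all 6 libraries (adjusted p = 0.641).

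**Figure D3:**
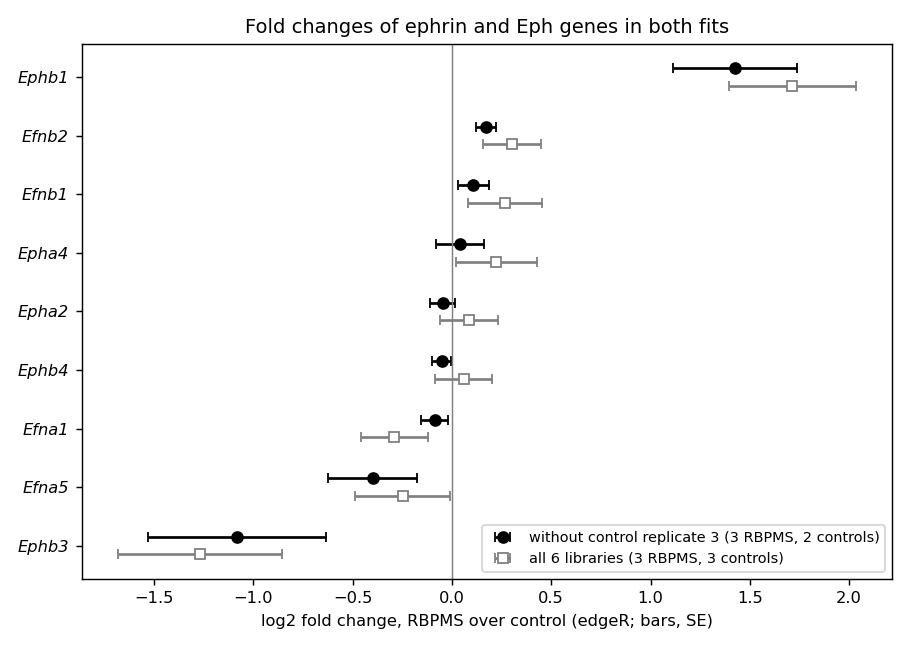
Log2 fold change of RBPMS over control with its SE for the 9 tested genes, without control replicate 3 (filled circles) and with all 6 libraries (open squares). Ephb1 is highest at 1.43 and 1.71 and Ephb3 lowest at -1.08 and -1.27, while Ephb4 and Epha2 lie on both sides of 0.

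Read against all genes, the members' counts were as follows. Over all 6 libraries edgeR called 0 of 9 tested members, and 0% of 13898 genes. The overexpressed gene Rbpms did not pass in that fit either (log2 fold change 1.28 ± 0.10, edgeR adjusted p = 0.061). At an unadjusted p under 0.05 there were 2 members (Ephb1 and Ephb3) and 7.56% of genes, DESeq2 called 1 member and 56 genes, and limma-voom called 0 of either. Without control replicate 3 edgeR called 2 of 9, both higher, against 7.24% of 14123 genes. Rbpms passed there (log2 fold change 1.27 ± 0.059, edgeR adjusted p = 3.6e-11). Ephb2, with 0 counts, was the member that did not enter the test. The groups did not overlap for 3 of 9 members over the 6 libraries, against 24.7% of all genes, and for 4 of 9 without control replicate 3, against 37.4%, shares near the background. The median log2 fold change of the 9 was -0.047 without control replicate 3, against -0.0025 over all genes, and 0.086 with all 6 libraries, against -0.0083. The sign was positive for 4 and negative for 5 of them without control replicate 3, and positive for 6 and negative for 3 over all 6 libraries.

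Control replicate 3 differed from the other controls in several of these genes. Relative to control replicates 1 and 2 it held less of long transcripts: the median log2 difference was 0.60 for the shortest of 5 length classes and -0.53 for the longest. Of the 9 genes 7 were lower in it, by log2 differences of -0.36 (Ephb4) to -0.84 (Ephb1). For Efna1, at 1830 bases, the difference of 0.54 lay close to the 0.60 of its length class, and for Epha4, at 8054 bases, -0.63 lay close to -0.53. The differences of Ephb4 (-0.36), Epha2 (-0.44), Efna5 (-0.47) and Efnb1 (-0.55) lay below the 0.03 of their class. In the class of Ephb1, Efnb2 and Ephb3 the median was -0.20, with Ephb1 (-0.84) and Efnb2 (-0.44) below it and Ephb3 (0.50) above it. With a trend on gene length removed from each library, edgeR with all 6 libraries called 0 members. Ephb1 had a log2 fold change of 1.61 there (adjusted p = 0.231) and Efnb2 0.20 (adjusted p = 0.499). Without control replicate 3 the same setting called 2 members, Efnb2 only just (adjusted p = 0.0499956). That fit leaves the library out, so it does not bear on its length trend. How much of the difference between the pairs of fold changes comes from length was not tested.

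**Figure D4:**
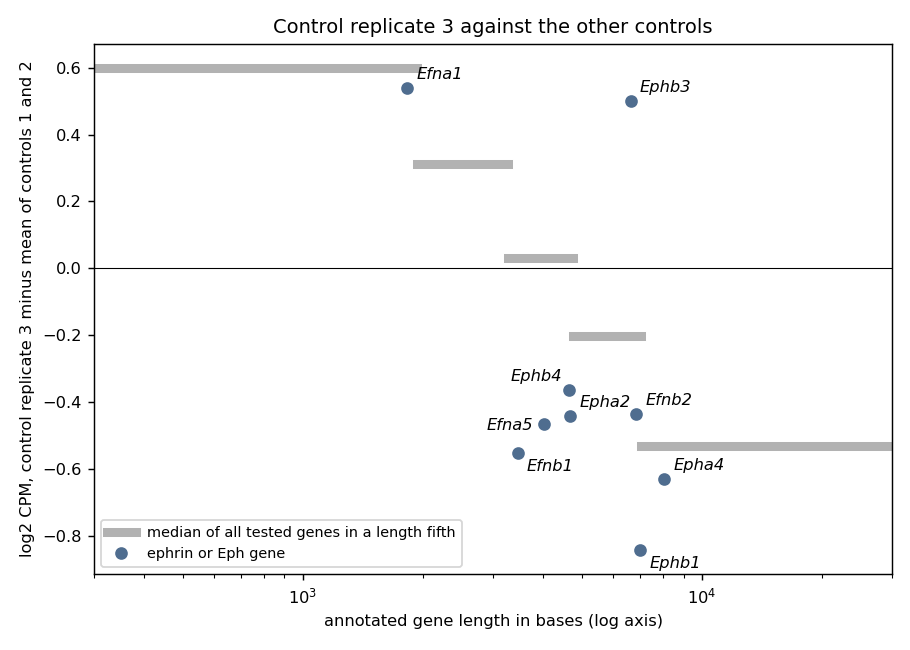
Log2 CPM of control replicate 3 minus the mean of control replicates 1 and 2 for the 9 genes (points) by annotated length (log axis), with the median of all tested genes in each of 5 length classes as grey bars, cropped to the axis. Efna1 (0.54) and Epha4 (-0.63) lie near their bars, Ephb4, Epha2, Efna5, Efnb1, Ephb1 and Efnb2 lie below theirs, and Ephb3 (0.50) lies above.

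The other 12 ephrin and Eph genes had at most 332 counts each over the 6 libraries. Of them 4 were tested and 0 called in either fit. The highest, Efna3, averaged 2.38 CPM with RBPMS and 3.41 in controls. That was above Ephb1 (2.34 and 0.727) and Ephb3 (0.491 and 1.19). Efna3 had 1.86, 2.93 and 2.35 CPM in RBPMS replicates 1 to 3, against 2.95, 3.76 and 3.52 CPM in control replicates 1 to 3, with a log2 fold change of -0.49 ± 0.26 without control replicate 3 (edgeR adjusted p = 0.264). Efnb3, Efna4 and Epha1 had 87 to 137 counts over the 6 libraries. Efna2 had 9 counts, Epha7 5, Epha3 and Epha5 1 each, and Epha6, Epha8, Epha10 and Ephb6 had 0.

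Of 40 signalling partners 33 were tested. Without control replicate 3 edgeR called 3, with 2 higher and 1 lower, against 7.24% of all genes. Nck2, an adaptor that joins phosphorylated B-type ephrins to the cytoskeleton, had 25.5, 25.3 and 19.8 CPM with RBPMS, against 15.7, 18.1 and 18.4 CPM in controls. It rose by a log2 fold change of 0.48 ± 0.11 (edgeR adjusted p = 0.0096), and with all 6 libraries had 0.44 ± 0.14 (adjusted p = 0.587). Itsn1, an exchange factor for Cdc42, fell by 0.18 on the log2 scale (adjusted p = 0.049), and with all 6 libraries its log2 fold change was 0.03. Over all 6 libraries edgeR called 0 of the 33, with 2 at an unadjusted p under 0.05. The median log2 fold change of the 33 was 0.012, against -0.0025 over all genes.

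Since Efnb2 and Ephb4 mark arterial and venous cells, other genes of these identities were counted in the fit without control replicate 3. Of 14 tested arterial genes 3 rose and 1 fell, and of 9 tested venous genes 2 rose and 2 fell, against 3.81% of all genes higher and 3.43% lower. Among arterial genes the Notch ligand gene Jag1 rose by a log2 fold change of 0.48 ± 0.048 (edgeR adjusted p = 2.8e-06), the connexin gene Gja4 by 0.91 ± 0.14 (adjusted p = 3.4e-04) and the netrin receptor gene Unc5b by 0.18 ± 0.055 (adjusted p = 0.048), and the connexin gene Gja5 fell by 0.38 on the log2 scale (adjusted p = 0.023). Among venous ones, the interleukin 1 receptor gene Il1r1 fell by 0.40 on the log2 scale (adjusted p = 4.7e-04) and the semaphorin coreceptor gene Nrp2 fell by 0.28 (adjusted p = 6.9e-04), while the lymphatic growth factor receptor gene Flt4 rose by 0.31 ± 0.049 (adjusted p = 4.4e-04) and the sialomucin gene Emcn by 0.17 ± 0.050 (adjusted p = 0.047). Over all 6 libraries 0 of these genes were called by edgeR (2 arterial and 0 venous genes at an unadjusted p under 0.05), and the log2 fold changes of Nrp2 and Emcn were 0.01 and -0.07, on the other side of 0. The called genes of each list thus lay on both sides of 0. The median log2 fold change of the 14 arterial genes was 0.089 without control replicate 3 and 0.135 with all 6 libraries. In each fit 10 were positive and 4 negative. For the 9 venous genes the medians were 0.045 (5 positive, 4 negative) and 0.010 (6 positive, 3 negative). Over all genes they were -0.0025 and -0.0083. With the trend on gene length removed, the 6-library medians were 0.056 for arterial genes (9 positive, 5 negative) and -0.16 for venous genes (3 positive, 6 negative). The median over all genes was -0.044 there.

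**Figure D5:**
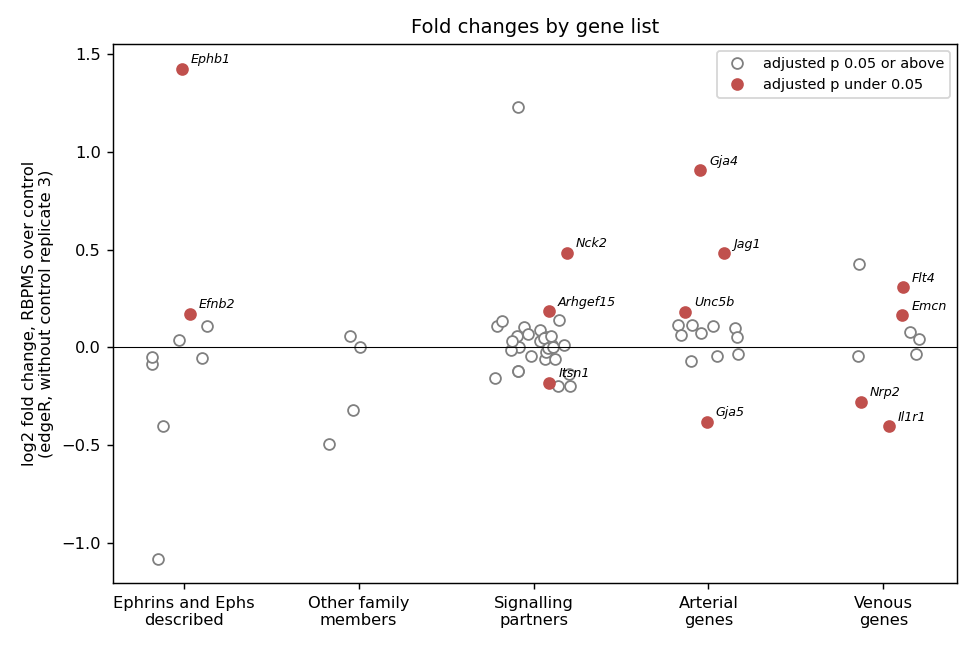
Log2 fold change of RBPMS over control without control replicate 3 for the tested genes of each list, 1 point per gene, filled and named where the edgeR adjusted p was under 0.05. The filled points are Ephb1 (1.43) and Efnb2 (0.17) of the family described, 3 of 33 partners, 4 of 14 arterial and 4 of 9 venous genes, on both sides of 0 in each of the last 3 lists.

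The genes with the most similar profile over the 6 libraries were looked up for the vein and artery markers among 10694 other genes, by the root mean square difference of log2 CPM relative to each gene's mean. For Ephb4 they were Med16 (0.016), Pcx (0.020) and Zfp523 (0.020). For Efnb2 they were Man2b1 (0.021), the TGF-beta receptor gene Tgfbr2 (0.024) and the Wnt receptor gene Fzd7 (0.030). In all 6, as in Ephb4 and Efnb2, control replicate 3 was the lowest library. That follows from picking them by their likeness to these profiles.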

How the data were processed

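Per the labels' protocols, total RNA was extracted with Trizol, depleted of ribosomal RNA and made into Illumina libraries. The authors deposited whole-number counts per gene for 6 libraries. Per the submitters' processing notes FastQC, Salmon and mm10 were used, while the sources used here give neither how whole counts arose nor whether strand was used. All 10 members have the same coordinates in GENCODE M21 (GRCm38). Columns were matched to samples by name.

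The deposited counts were tested in R 4.3.3 with edgeR 4.0.16 (filterByExpr by group, TMM, quasi-likelihood test with group as its single term). Genes with a Benjamini-Hochberg adjusted p under 0.05 over all tested genes were called, both with all 6 libraries and without control replicate 3. SE is the log2 fold change over the root of F. DESeq2 1.42.0 and limma 3.58.1 were alternatives. The members and lists were chosen with earlier results of these data known. Named genes were the members, the called genes of each list (1 called partner gene is not reported here), family genes with counts, and the 3 genes most similar to Ephb4 and to Efnb2. Pairs of libraries within a group had a chi-square per degree of freedom of at least 3.19, so none was a copy. The test was tried on simulated data.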

Additional observations from a re-analysis of the deposited data

How the results depend on the processing

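With all 6 libraries the count of called genes was 0 in edgeR, 5 with no filter on low counts, 56 in DESeq2, 1087 in limma-voom with library quality weights and 3 with a gene length offset, and 0 to 1022 when 1 library was left out (1022 without control replicate 3). The count of called members was 0, and 1 in DESeq2 and in limma-voom with quality weights, Ephb1 each time, and 0 to 2 with 1 library left out. Without control replicate 3, 1022 genes and 2 members were called. Leaving out 1 more library gave 415 (control replicate 1) to 1017 genes (RBPMS replicate 3), with 627 without control replicate 2 and 616 without RBPMS replicate 1, and 0 to 3 members. DESeq2 called 0 members there, but gave Ephb1 no adjusted p (unadjusted p = 9.1e-04), so that is no lost call of Ephb1.

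Deviations of same-numbered libraries from their group means had correlations across genes of 0.050, -0.025 and 0.013, so the numbers show no pairing, and not every library correlated best with its own number. The replicate number as a block gave 0 genes with all 6 libraries and 917 genes and 3 members without control replicate 3, Efnb1 being the third (0.21, adjusted p = 0.033). It changed the call of no other member.

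In the 6-library fit the sign turned for Ephb4 (-0.045 with quality weights, and -0.052 to 0.14 with 1 library left out, negative without control replicate 3) and Epha2 (-0.055 with quality weights, and -0.047 to 0.19, negative without control replicate 3). In the fit without control replicate 3, leaving out 1 more library gave -0.11 to 0.014 for Epha2 (positive without control replicate 1) and -0.050 to 0.090 for Epha4 (negative without RBPMS replicate 2). None of these was called, and the causes were not tested. Ephb1 ran from 1.41 to 1.88 over the alternatives to the 6-library fit and from 1.33 to 1.49 over those to the other, and Efnb2 from 0.17 to 0.42 and from 0.096 to 0.25. Ephb3 kept its direction (-1.54 to -0.85 and -1.53 to -0.45). Ephb1, Ephb3 and Efna5 had 6 to 66 counts per library, which limits their precision.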
